A study of Arabidopsis thaliana with 6 samples.

Results

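The 6-phosphogluconate dehydrogenase family of Arabidopsis thaliana has 3 genes, AT1G64190, AT3G02360 and AT5G41670. Their probe sets were taken from the 22810 on the array as those that the platform annotation assigns to 1 gene only, that gene being a member. Each member had 1 such probe set (262323_at, 256328_at and 249266_at in the same order), so the family is 3 of the 13350 genes that had a probe set of their own. RNA came from rosette leaves of pho3, a line from the Feldmann T-DNA collection, which is in the Ws-2 background, and of Ws-2 itself, the wild type, with 3 Affymetrix ATH1 arrays per line. Both lines had the same growth regime: seed was stratified for 3 days at 4 °C, kept for 10 days on medium holding 1% sucrose, then moved to compost at 23 °C, 60% humidity and a cycle of 16 h of light and 8 h of dark, to growth stage 6.0. The mutant is represented by 1 line only. Separate plants or harvests are not stated for the replicates, and the spread behind each p-value may therefore be technical.

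As background, 6-phosphogluconate dehydrogenase oxidises and decarboxylates 6-phosphogluconate to ribulose 5-phosphate and reduces NADP to NADPH. It acts after glucose-6-phosphate dehydrogenase and the lactonase, and is the second NADPH-forming step of the oxidative pentose phosphate pathway. Ribulose 5-phosphate then feeds nucleotide and aromatic synthesis or returns to hexose phosphate through isomerases, epimerases, transketolase and transaldolase. AT1G64190 and AT5G41670 are known to encode isoforms that reach the plastid, and AT3G02360 one found in the cytosol and peroxisomes. In leaves in the light, photosynthesis supplies plastid NADPH, and the oxidative pathway matters most in the dark and in tissue without photosynthesis. pho3 is known, from work outside these data, for a defect in the phloem sucrose transporter SUC2 and for sugar-rich leaves. No probe set is named SUC2 here, and the lesion was not checked.

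Across the 6 arrays the signals were on the scale that the authors' MAS5 processing leaves, with a trimmed mean of 100 and a median between 40.4 and 44.2 on each. The array labelled wild-type replicate 1 stood closer to pho3 than to its own group. The spread of its log2 differences over the 13983 probe sets tested (scaled median absolute deviation) lay between 0.27 and 0.31 from pho3 arrays but was 0.47 and 0.48 from the rest of its group. pho3 replicate 3 lay at 0.43 and 0.44 from the other pho3 arrays but at 0.27, 0.35 and 0.37 from wild-type replicates 1, 2 and 3, so it too was closer to each array of the other line than to its own. DFR, dihydroflavonol reductase of anthocyanin synthesis, read 736, 1155 and 586 on pho3 replicates 1, 2 and 3 and 799, 34.2 and 27.6 on wild-type replicates 1, 2 and 3. Of the 14 leaf photosynthesis markers listed, 4 had a probe set (LHCB4.1, RCA, PRK and SBPASE), each at 955 or above on every array. The root hair expansins EXPA7 and EXPA18, the only measured root markers of 8, read 6.06 to 38.0. FMA, the only measured guard cell marker of 5, read 40.9 to 63.7, and no flower, seed or phloem marker had a named probe set.

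The first comparison asked whether transcripts of the 3 isoforms differ between pho3 and wild-type leaves. All 3 genes had a higher mean in pho3, by 1.09-fold to 1.16-fold, and none of the differences passed the test. All 3 isoforms were measured well above the dim range: the lowest of the 18 readings was 172, against a filter signal (the 40th percentile of an array) of 26.2 to 28.4. In leaf RNA, a change in the number of cells of a type and a change in RNA per cell cannot be told apart.

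AT1G64190 encodes one of the isoforms that reach the plastid. It gave 463, 473 and 429 for replicates 1, 2 and 3 of pho3, against 432, 372 and 371 for those of wild type. The groups overlapped because the array labelled wild-type replicate 1 read just above pho3 replicate 3, 1.01-fold. The mean was 455 ± 22.8 in pho3 leaves, against 392 ± 34.7 in Ws-2 leaves (SD, n = 3 each). The log2 difference, pho3 minus wild type, was 0.22 (SE 0.14, 95% interval -0.10 to 0.54), with limma's adjusted p = 0.402 over all probe sets. As a fold the interval ran from 0.931 to 1.45.

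AT3G02360, the cytosolic and peroxisomal isoform, had 778, 781 and 716 in pho3 leaves, against 732, 579 and 671 in Ws-2 leaves. Here too wild-type replicate 1 lay among the pho3 values, and wild-type replicate 2 was the lowest array. The mean was 758 ± 36.4 in pho3 leaves, against 661 ± 77.2 in Ws-2 leaves (SD, n = 3 each). The log2 difference was 0.20 (SE 0.14, 95% interval -0.12 to 0.53; limma's adjusted p = 0.421).

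AT5G41670, the other isoform that reaches the plastid, had 228, 212 and 197 in pho3 leaves, against 216, 172 and 196 in Ws-2 leaves. Wild-type replicate 1 was the second highest of all 6 arrays, and pho3 replicate 3 and wild-type replicate 3 read almost the same. The mean was 212 ± 15.5 in pho3 leaves, against 195 ± 22.2 in Ws-2 leaves (SD, n = 3 each). The log2 difference was 0.13 (SE 0.15, 95% interval -0.23 to 0.49), the smallest of the family, with limma's adjusted p = 0.628. Its upper limit corresponds to 1.40-fold.

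**Figure D1:**
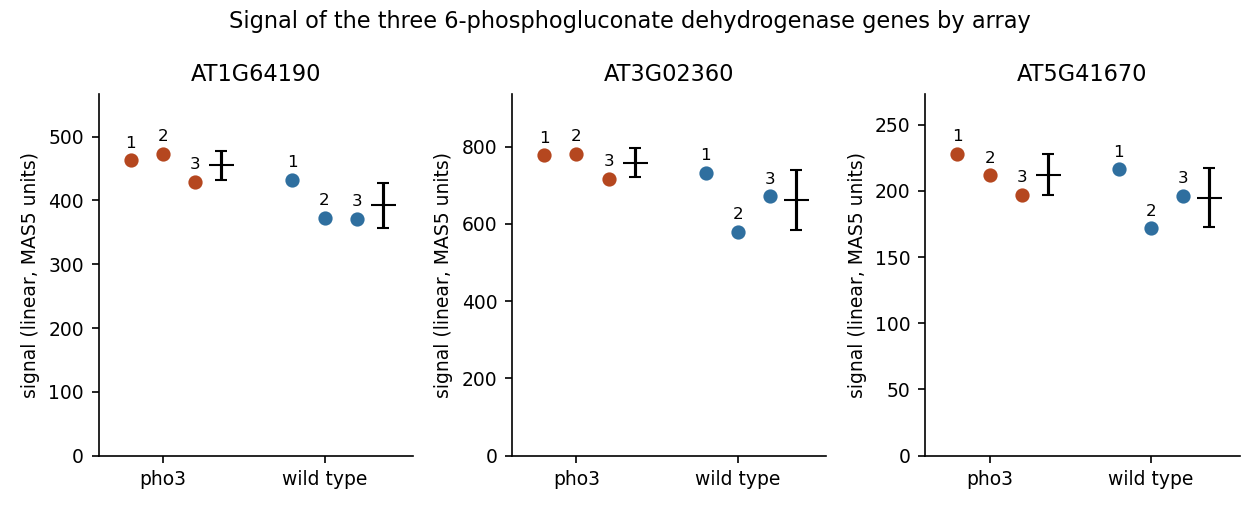
Signal of each isoform on a linear axis from 0, by array; points are arrays numbered by replicate, and the bar beside them is the mean with its SD (n = 3). In every panel wild-type replicate 1 sits among the pho3 arrays, and the other wild-type arrays lie below them.

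The family's count of calls was thus 0 of 3 in each direction by limma, and also 0 of 3 at an unadjusted p under 0.05. Over all 13983 probe sets the same fit called 0% higher and 0% lower in pho3, while 10.6% had an unadjusted p under 0.05. The median log2 difference of the 3 genes was 0.20, beside 0.00 over all probe sets tested, of which 49.8% had a higher mean in pho3. A larger absolute difference than that of AT1G64190 was found for 55.9% of probe sets tested, than that of AT3G02360 for 58.1% and than that of AT5G41670 for 72.8%. The family was also steady within groups. The within-group SD of the log2 signal was 0.10 for AT1G64190, 0.13 for AT3G02360 and 0.14 for AT5G41670, and 92.4%, 84.9% and 82.3% of probe sets had a larger one. These shares were not matched for signal level, and the isoforms read well above the filter signal. From the highest to the lowest array, AT1G64190 spanned 1.27-fold, AT3G02360 1.35-fold and AT5G41670 1.33-fold.

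The array labelled wild-type replicate 1 raised the wild-type mean of each isoform by a like amount. It read 1.16-fold, 1.17-fold and 1.17-fold the mean of wild-type replicates 2 and 3 for AT1G64190, AT3G02360 and AT5G41670. All 3 pho3 arrays read above both of those wild-type arrays for 3 of 3 isoforms, as they did for 26.3% of all probe sets tested. Without wild-type replicate 1 the log2 differences were 0.29, 0.28 and 0.21 for AT1G64190, AT3G02360 and AT5G41670, with limma's adjusted p = 0.210, 0.222 and 0.400. That fit called 4.61% of probe sets higher and 0.837% lower, and 0 of the 3 isoforms. With pho3 replicate 3 left out as well, the differences were 0.33, 0.32 and 0.26 (limma's adjusted p = 0.0725, 0.0882 and 0.208). That fit called 18.2% of probe sets higher and 16.5% lower, again with 0 of 3 isoforms among them. Both arrays left out stood closer to the other line in these same data. The p-values of these fits take no account of that choice.

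The readings of each isoform were ordered alike. For AT3G02360 the order from high to low was pho3 replicates 2 and 1, wild-type replicate 1, pho3 replicate 3, then wild-type replicates 3 and 2. AT1G64190 had the same order apart from the last 2 places, which differed by less than 1.01-fold. AT5G41670 began with pho3 replicate 1 and wild-type replicate 1 and ended with the same 3 arrays as AT3G02360. The actin 3-prime to 5-prime control ratio, a gauge of RNA integrity and labelling length, was 4.75, 5.24 and 3.46 on pho3 replicates 1, 2 and 3 and 4.23, 2.18 and 2.26 on wild-type replicates 1, 2 and 3. These ratios fall in the same order as AT3G02360. The second actin pair did not split the arrays in this way, with 1.79 to 2.11 in pho3 and 1.83 to 1.95 in wild type. Nor did the GAPDH pair, which read 1.47, 1.37 and 1.16 on pho3 replicates 1, 2 and 3. On wild-type replicates 1, 2 and 3 it read 1.23, 1.27 and 1.34. The summed signal of the 4 leaf photosynthesis markers ran from 7274 to 10194 in pho3 and from 8979 to 11705 in wild type. The mean of all 4 markers was lower in pho3 (median difference -0.39 on the log2 scale), and 0 of 4 passed limma's test. They were 4 of 4 called lower, with a median of -0.69, once wild-type replicate 1 and pho3 replicate 3 were both left out. That fit called 18.2% of all probe sets higher and 16.5% lower. The part of RNA integrity and of the leaf markers in the isoform differences was not tested.

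The second comparison asked whether the isoforms shifted by different amounts, through the log2 ratio of their signals within each array, which is free of a scaling factor shared by the whole array. A ratio's level depends on the probes of each gene and says nothing of which isoform is more abundant, so only its change between arrays is read. With the signals as deposited, the group means of each ratio differed by less than 0.1 log2 units and the groups overlapped for all 3 pairs. For AT5G41670 over AT3G02360 the groups were separate under other processing, as given below.

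The ratio of AT1G64190 to AT3G02360 was -0.75, -0.72 and -0.74 in pho3 leaves, against -0.76, -0.64 and -0.85 in Ws-2 leaves. The pho3 arrays lay inside the wild-type range. The difference, pho3 minus wild type, was 0.01 (exact permutation p = 0.7, two-sided; 0.7 with Benjamini-Hochberg adjustment over the 3 pairs). The exact 90% interval of the difference, the highest level short of 100% that 3 against 3 arrays allow, ran from -0.11 to 0.13, or 0.925-fold to 1.09-fold. The sign turned to -0.047 after quantile normalization and to -0.038 without wild-type replicate 3.

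The ratio of AT5G41670 to AT3G02360 was -1.77, -1.88 and -1.86 in pho3 leaves, against -1.76, -1.75 and -1.77 in Ws-2 leaves. pho3 replicates 2 and 3 lay below every wild-type array, while pho3 replicate 1 fell level with wild-type replicate 3. The difference was -0.08 (exact permutation p = 0.2, two-sided; adjusted 0.3), with an exact 90% interval from -0.13 to 0.00. The 6 arrays together spanned 1.09-fold. After quantile normalization the difference was -0.17, over 2 times larger, and with a pseudocount of 16 it was -0.08. Under both settings every pho3 array lay below every wild-type array, with exact permutation p = 0.1, two-sided, the smallest that this design can give.

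The ratio of AT1G64190 to AT5G41670 was 1.02, 1.16 and 1.12 in pho3 leaves, against 1.00, 1.12 and 0.92 in Ws-2 leaves. The groups overlapped, with wild-type replicate 2 among the pho3 values. The difference was 0.09 (exact permutation p = 0.2, two-sided; adjusted 0.3), with an exact 90% interval from -0.09 to 0.24, or 0.936-fold to 1.18-fold. With 3 arrays a side these permutations cannot give a p below 0.1, so no pair could have passed 0.05. The intervals hold for the signals as deposited and assume that the lines differ by a shift alone. For AT5G41670 over AT3G02360, the difference of -0.17 after quantile normalization lay outside its interval of -0.13 to 0.00.

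**Figure D2:**
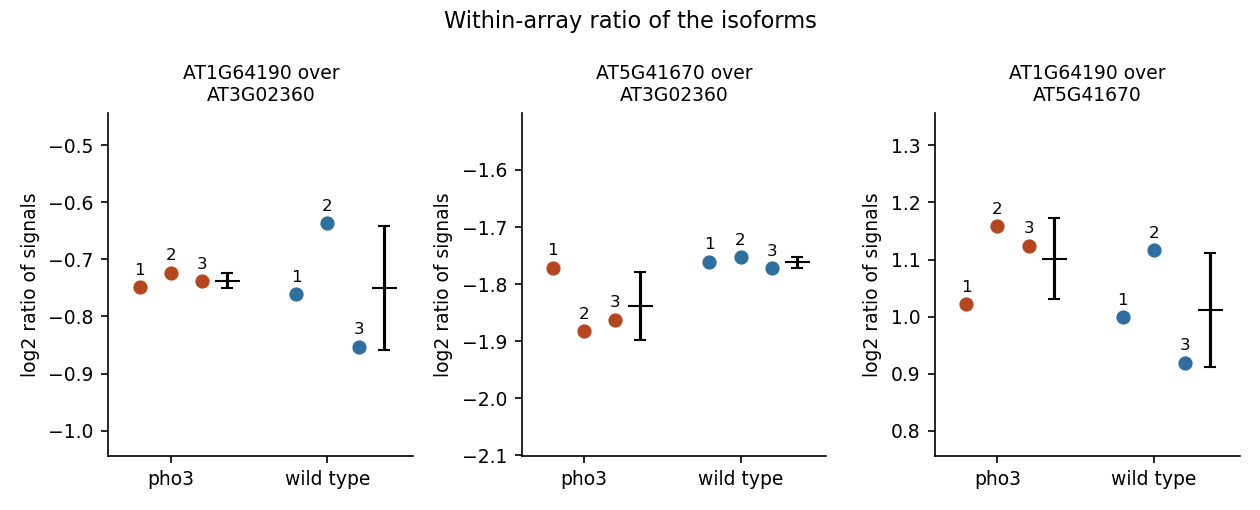
Within-array log2 ratio of each pair of isoforms; points are arrays numbered by replicate, the bar beside them is the mean with its SD (n = 3), and each panel spans 0.6 log2 units. The groups overlap in all 3 panels, with mean differences of 0.01, -0.08 and 0.09.

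Set against other genes, the isoforms held a narrow ratio to one another. The ratio of AT5G41670 to AT3G02360 spanned 0.13 log2 units over the 6 arrays, and 0.129% of probe sets tested had a narrower ratio to AT3G02360. For AT1G64190 to AT3G02360 the span was 0.22 and the share 1.26%, beside a median span of 0.83 over all probe sets. For AT1G64190 to AT5G41670 the span was 0.24 and the share with a narrower ratio to AT5G41670 was 2.22%, beside a median span of 0.80. Narrow ratios follow in part from the small range of each isoform alone, and these shares are descriptions without a test.

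The shape of the profiles over the 6 arrays was compared by Pearson's r of the log2 signals, which ignores the size of the swing. It was 0.94 between AT3G02360 and AT5G41670, 0.90 between AT1G64190 and AT3G02360, and 0.81 between AT1G64190 and AT5G41670. These are descriptions over 6 arrays of 2 groups, in which whole arrays deviate together. Many genes had like profiles: 1046 probe sets (7.48%) reached an r of at least 0.95 to AT1G64190, 311 (2.22%) to AT3G02360 and 199 (1.42%) to AT5G41670. For AT1G64190, 14.6% of probe sets were closer than AT3G02360 and 23.2% closer than AT5G41670. For AT5G41670, 2.16% of probe sets were closer than AT3G02360.

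The named genes nearest in profile are known here by locus number alone. Those nearest to AT1G64190 were AT4G24440, AT3G17890, AT1G56060 and AT5G05750, with r between 0.996 and 0.998 over the 6 arrays. AT4G24440 read 194, 206 and 150 in pho3 leaves, against 149, 86.1 and 90.1 in Ws-2 leaves, so it swung further than the isoform in a like array order. Its log2 difference was 0.79 (limma's adjusted p = 0.375), and 1.05 without wild-type replicate 1 (limma's adjusted p = 0.0337). Neither p-value takes account of the choice of AT4G24440 by its likeness to AT1G64190 on these same arrays. Nearest to AT3G02360 were AT5G23460, AT1G80130, AT5G18800 and AT1G52720, with r between 0.994 and 0.999. AT5G18800 had a range most like that of the isoform, at 229, 227 and 203 in pho3 leaves, against 212, 156 and 185 in Ws-2 leaves. Nearest to AT5G41670 were AT3G11850, AT3G55410, AT1G49560 and AT2G38465, with r between 0.994 and 0.997. AT3G55410 read 334, 295 and 271 in pho3 leaves, against 311, 220 and 261 in Ws-2 leaves. The log2 differences of these 12 genes were all positive, from 0.19 to 2.17, and larger than that of the isoform each was matched to. The largest was that of AT5G23460, which read 4.54 and 20.4 on wild-type replicates 2 and 3, under the filter signal of 26.2 to 28.4. AT3G17890, AT3G11850, AT1G49560 and AT2G38465 also read under it on wild-type replicate 2, where log2 differences are less certain. A positive sign follows from choosing genes by their likeness to isoforms that read higher in pho3. The larger size follows in part from the small range of the isoforms. A larger range was found for 87.8%, 79.1% and 81.5% of probe sets tested than for AT1G64190, AT3G02360 and AT5G41670.

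**Figure D3:**
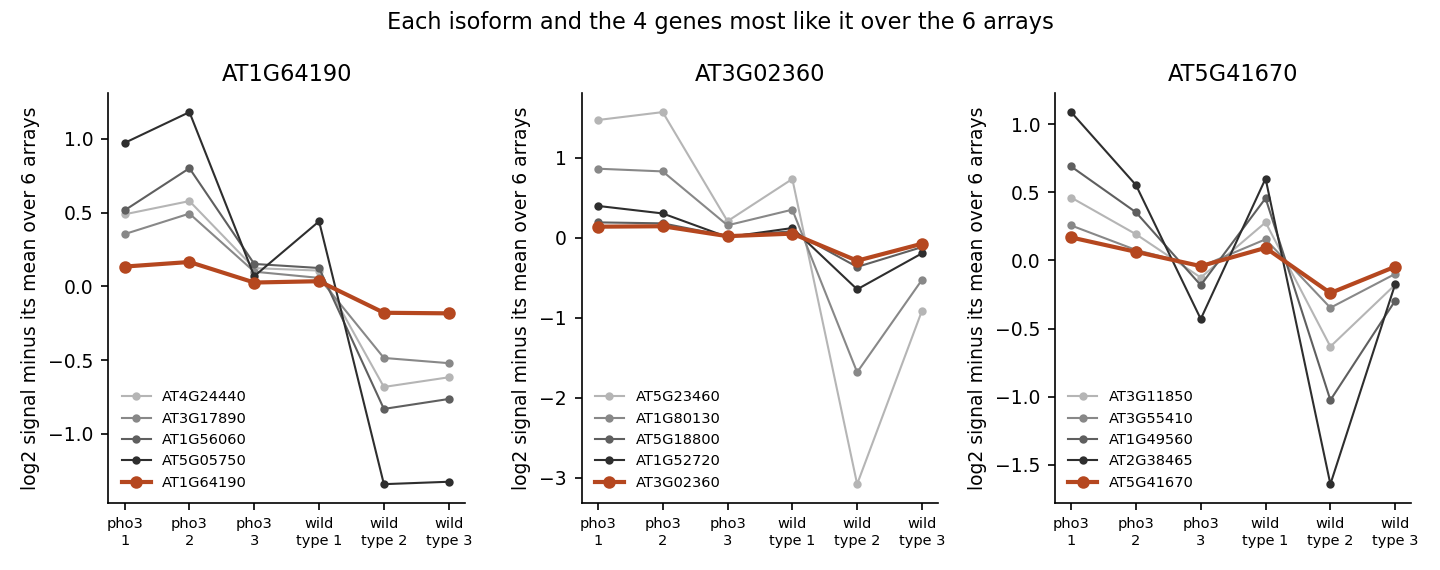
Log2 signal of each isoform (thick line) and of the 4 genes with the highest Pearson's r to it (thin lines), each minus its own mean over the 6 arrays, by array. The isoforms keep within 0.3 log2 units of their mean on every array, while the matched genes swing further. Those matched to AT3G02360 and AT5G41670 are lowest on wild-type replicate 2. Those matched to AT1G64190 are low on wild-type replicates 2 and 3 alike.

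The third comparison placed the family among other genes of the pathway and of NADPH metabolism. Of 65 genes on 7 lists, 19 had a single-gene probe set, and all 19 were tested: 8 had a higher and 11 a lower mean in pho3. None of the 19 passed limma's test over all probe sets, and 4 had an unadjusted p under 0.05, against 10.6% of all probe sets. Limma's lowest adjusted p among them, 0.375, was also the lowest of any probe set tested, and several genes share it. The median log2 difference of the 19 genes was -0.09, beside 0.20 for the family and 0.00 over all probe sets. The roles below are those for which a gene was listed, from general knowledge, where the RefSeq table gives only its locus number.

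The steps just before the family could not be read, since none of the 6 glucose-6-phosphate dehydrogenases and 5 lactonases listed had a named probe set. Gluconokinase, listed as AT2G16790, makes 6-phosphogluconate directly from gluconate. It read 64.8, 107 and 118 in pho3 leaves, against 130, 161 and 144 in Ws-2 leaves, so all pho3 arrays lay below all wild-type arrays, as for 5.81% of probe sets tested. Its log2 difference was -0.63 (SE 0.24, limma's adjusted p = 0.375). The cytosolic phosphoglucose isomerase, listed as AT5G42740, read 151, 156 and 181 in pho3 leaves, against 174, 166 and 162 in Ws-2 leaves, a log2 difference of -0.05.

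Of the non-oxidative enzymes, which take the pentose phosphates onward, 2 of 4 had a higher and 2 a lower mean in pho3. Their median was -0.09, and -0.0098 without wild-type replicate 3. AT5G44520, listed as a ribose 5-phosphate isomerase, read 96.3, 106 and 155 in pho3 leaves, against 147, 240 and 271 in Ws-2 leaves. Its log2 difference was -0.86 (SE 0.29, limma's adjusted p = 0.375). Without wild-type replicate 1 it fell by 1.13 on the log2 scale (limma's adjusted p = 0.0467), the only one of the 19 genes called in that fit. The same fit called 4.61% of all probe sets higher and 0.837% lower. The epimerases AT1G63290 and AT3G01850 differed by 0.15 and 0.02, and the transaldolase AT1G12230 by -0.21. AT5G17630, listed as the plastid xylulose 5-phosphate translocator, read 115, 119 and 200 in pho3 leaves, against 184, 250 and 249 in Ws-2 leaves, a log2 difference of -0.69 (limma's adjusted p = 0.375).

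Of the other enzymes that form NADPH, 2 had a higher and 2 a lower mean in pho3. Their median was 0.08, and 0.13 without wild-type replicate 1 and 0.032 without wild-type replicate 3. AT5G14590, listed as an organellar NADP-isocitrate dehydrogenase, read 291, 289 and 199 in pho3 leaves, against 211, 158 and 164 in Ws-2 leaves. Its log2 difference of 0.54 (SE 0.21, limma's adjusted p = 0.375) was the largest positive one of the 19 genes. The isocitrate dehydrogenase ICDH differed by 0.25, the cytosolic cICDH by -0.09 and ALDH11A3, the non-phosphorylating glyceraldehyde-3-phosphate dehydrogenase, by -0.28. Of the reductases that draw on NADPH, the glutathione reductase GR1 differed by 0.38, the second one, GR, by -0.20 and the plastid thioredoxin reductase NTRC by -0.47.

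The beta-hydroxyacid dehydrogenases, which share a fold with 6-phosphogluconate dehydrogenase but act on other substrates, had a median of 0.12. AT4G20930 read 64.9, 79.2 and 68.6 in pho3 leaves, against 61.0, 63.8 and 64.0 in Ws-2 leaves, and AT1G71170 read 34.6, 36.9 and 28.7 in pho3 leaves, against 26.2, 27.6 and 21.4 in Ws-2 leaves. Both lay higher on all pho3 arrays, as did 5.31% of probe sets tested, and AT1G71170 lay near the filter signal. Their log2 differences were 0.17 and 0.41 (limma's adjusted p = 0.481 and 0.376). AT1G18270 differed by 0.12, AT1G71180 by -0.12 and AT4G29120 by -0.16.

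With wild-type replicate 1 and pho3 replicate 3 both left out, 5 of the 19 genes were called. AT5G44520, AT5G17630, AT2G16790 and NTRC were lower and AT5G14590 was higher, in a fit that called 18.2% of probe sets higher and 16.5% lower. The same fit called all 4 measured leaf photosynthesis markers lower, with log2 differences of -0.97 for PRK, -1.07 for SBPASE, -0.41 for LHCB4.1 and -0.37 for RCA. These calls rest on leaving out the arrays that stood closer to the other line, which the p-values do not take into account. The part of the leaf markers in the lower readings of these pathway genes was not tested.

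**Figure D4:**
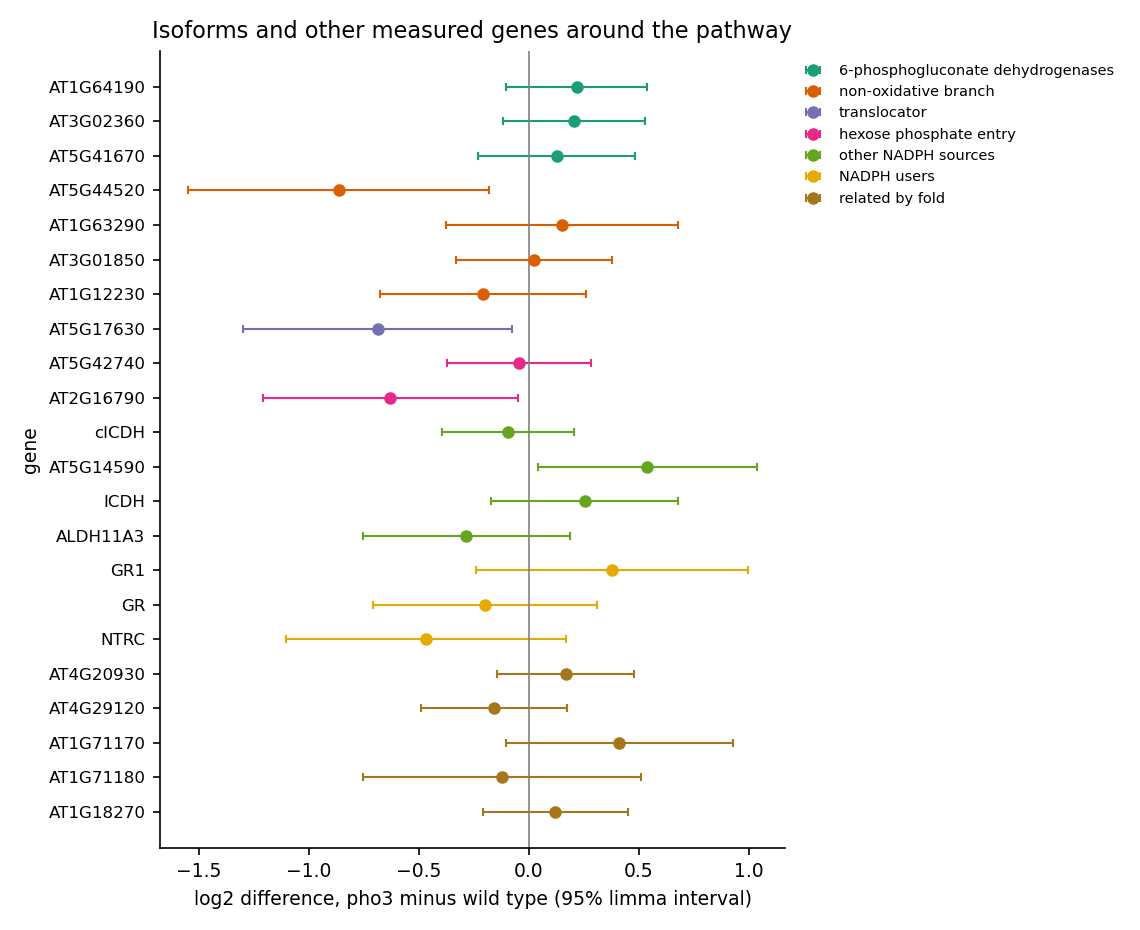
Log2 difference, pho3 minus wild type, of the 3 isoforms and the 19 other genes, with limma's 95% intervals, unadjusted, from all 6 arrays. The isoforms lie at 0.22, 0.20 and 0.13 with intervals that cross 0, between AT5G44520 at -0.86 and AT5G14590 at 0.54.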

How the data were processed

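Linear signal intensities for 22810 probe sets were deposited by the authors. MAS5 is named in the submitters' processing notes, with no version, and its settings are not given in the sources used here. Arrays were grouped by title. Control probe sets (64) were dropped. A further filter kept the 13983 of 22746 others whose signal reached the 40th percentile of the array on 3 or more arrays. Log2 signals, with no pseudocount, were fitted with limma 3.58.1 in R 4.3.3 (lmFit, eBayes with trend). Tests were two-sided, p-values were adjusted by Benjamini-Hochberg across the kept probe sets, and the threshold was 0.05. Isoform ratios were tested by exact permutation over arrays with scipy 1.17.1. Depth has no meaning for arrays, whose number limits the precision. The fitting script was tested on simulated data.

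Gene names came from the platform annotation, updated through gene numbers to RefSeq TAIR10.1 (13436 of 13513 matched); 503 probe sets with several genes and 8730 unlisted ones name no gene here. No coordinates or sequences are given. The members and lists were chosen with earlier results of these data known. Named were the members, all tested genes of the pathway lists (none held more than 5), the 4 genes most like each member, and DFR. Measured markers of leaf, root and guard cell are named as a check of the tissue, outside that rule. Alternatives changed the scaling (quantile, median), the pseudocount (16), the filter, the variance prior and the array weights, added a replicate block, or left arrays out.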

Additional observations from a re-analysis of the deposited data

How the results depend on the processing

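Each isoform's log2 difference stayed positive and short of the threshold under all 17 alternatives. Over them AT1G64190 ranged from 0.17 to 0.33, AT3G02360 from 0.11 to 0.32 and AT5G41670 from 0.04 to 0.26. Leaving out 1 array in turn gave 0.18 to 0.29 for AT1G64190, 0.11 to 0.28 for AT3G02360 and 0.04 to 0.21 for AT5G41670. AT5G41670 was lowest, at 0.04, without wild-type replicate 2, and AT3G02360 gave 0.11 there. Limma's array weights put the differences at 0.29, 0.30 and 0.22 (limma's adjusted p = 0.0805, 0.0838 and 0.213).

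The ratio of AT1G64190 to AT3G02360 was 0.01 with all arrays, -0.047 with quantile normalization and -0.038 without wild-type replicate 3; the cause was not tested. It ran from -0.038 to 0.070 over the arrays left out, the ratio of AT5G41670 to AT3G02360 from -0.11 to -0.05 (-0.08 with all arrays), and that of AT1G64190 to AT5G41670 from 0.04 to 0.14. The ratio of AT5G41670 to AT3G02360 was -0.17 with quantile normalization and -0.08 with the pseudocount (exact permutation p = 0.1 in each, with separate groups); the cause was not tested.

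Over all probe sets, the calls numbered 0 in each direction with all arrays, 2237 higher and 2026 lower with array weights, and 2547 higher and 2305 lower once wild-type replicate 1 and pho3 replicate 3 were both left out. The array weights were lowest for those same arrays, at 0.37 and 0.44, against 1.09 to 2.20 for the others. Leaving out 1 array gave 0 to 644 higher and 0 to 117 lower, above 0 only without wild-type replicate 1. Same-numbered arrays of the lines did not deviate together in every pair (r of 0.39, -0.27 and 0.43), so the numbers are not read as pairs. With the replicate block 0 probe sets were higher and 0 lower, and the isoforms' adjusted p were 0.411, 0.430 and 0.649. Medians of the 6 pathway lists with tested genes kept their sign under all 10 alternatives run on them, but not their size. The median of the non-oxidative list ranged from -0.16 to -0.0098 and that of the other NADPH-forming enzymes from 0.031 to 0.13.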
